A study of Mus musculus with 4 samples.

Results

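In the thymus autonomy library of this mouse study, cells whose T cell receptor beta (TRB) chain recurred in many cells were set against cells whose TRB chain was found in a single cell. A chain was the nucleotide CDR3, the stretch that spans the V-D-J join, together with its V and J segment. It was taken from TRB contigs labelled productive and full-length. The large set held every barcode with a chain that occurred in 10 or more barcodes, and the single set every barcode whose chains each occurred in 1 barcode. Of 3240 autonomy barcodes with such a chain, 1941 (59.9%) fell in the large set and 472 (14.6%) in the single set. Matched to gene expression at 1000 or more UMIs (unique molecules counted), these gave 1924 large-set and 469 single-set cells, of 8961 barcodes in the 2 gene expression libraries of the series.

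The study compared thymocytes in autonomy, where the thymus goes on making T cells from its own resident precursors, with turnover, where incoming precursors replace them. Both libraries came from wild-type thymi 28 days after transplantation, sorted by the labels for the DN3-DN4, ISP and DP stages and run on 10x 5′ gene expression with V(D)J enrichment. The labels give neither the hosts nor the number of pooled thymi, and 1 gene expression and 1 V(D)J library stand for each condition. All autonomy cells therefore come from 1 library, cells of a chain are not independent samples, and no test was made: the intervals are 95% and cover counting error only.

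During T cell development the TRB genes rearrange first, in CD4-CD8- (DN) cells. A productive chain pairs with the invariant pre-T alpha chain, encoded by Ptcra, and the pre-TCR drives several divisions (beta-selection) before the daughters come to rest as CD4+CD8+ (DP) cells. Each daughter then rearranges its own alpha chain (TRA) with Rag1 and Rag2, so that cells of a common beta chain can carry many alpha chains. Cells that pass selection lose the Rag genes, raise Klf2 and S1pr1, the receptor that guides exit from the thymus, and leave.

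The 6 chains below show what defined the sets: the first 4 are large chains with their barcode counts and the other 2 are single chains, of an S1pr1-positive and of a resting cell, picked as those with the most contig UMIs of their class. The TRB locus lies on chromosome 6, and the chains are printed from CDR3 start to end, with capitals for the junction bases outside the stretches that at least 50% of the chains with the same V or J segment share.
TRBV13-2 to TRBJ2-4, 192 barcodes: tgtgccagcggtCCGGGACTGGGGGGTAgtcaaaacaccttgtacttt
TRBV29 to TRBJ2-5, 186 barcodes: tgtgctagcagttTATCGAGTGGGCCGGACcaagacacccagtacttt
TRBV3 to TRBJ2-2, 146 barcodes: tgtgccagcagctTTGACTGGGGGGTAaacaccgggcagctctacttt
TRBV1 to TRBJ2-4, 73 barcodes: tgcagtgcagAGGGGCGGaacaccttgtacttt
TRBV17 to TRBJ2-1, 1 barcode: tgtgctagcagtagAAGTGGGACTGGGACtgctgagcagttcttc
TRBV23 to TRBJ2-5, 1 barcode: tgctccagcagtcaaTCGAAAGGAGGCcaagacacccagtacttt

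The autonomy library held 832 distinct chains, of which 69 occurred in 10 or more barcodes, 243 in 2 to 9 and 520 in 1. The turnover library held 3993 distinct chains, none in 10 or more barcodes, and its largest chain had 8. There, 95.3% of barcodes with a chain fell under the rule for single chains. The chains of the 2 libraries were almost separate: 1 chain occurred in both, in 51 autonomy barcodes and 1 turnover barcode. The first 2 chains printed above were a pair, since 174 cells carried both, and they account for most of the 253 large-set cells with 2 or more chains.

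**Figure D1:**
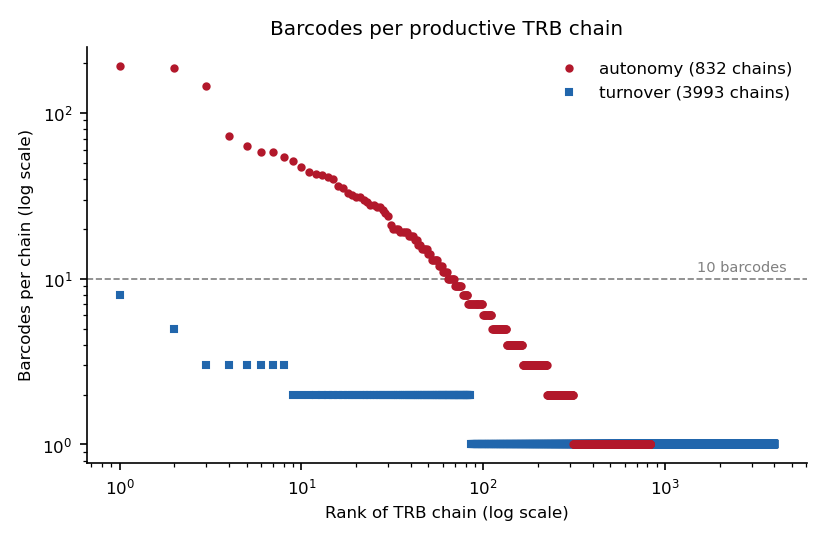
Barcodes per TRB chain (vertical axis, log scale) against the rank of the chain (horizontal axis, log scale) in the autonomy and turnover V(D)J libraries, each point a chain. The dashed line marks 10 barcodes: 69 autonomy chains lie at or above it, and no turnover chain does.

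The contigs behind the sets were of similar depth, with a median of 14 UMIs per chain and cell in the large set and 15 in the single set. A chain seen with 1 contig UMI made up 74 of 2188 chain calls in the large set and 17 of 482 in the single set. Of the single chains, 5 lay 1 base from a larger chain with the same V and J. Gene expression depth differed more, with a median of 2414.5 UMIs per large-set cell and 2887 per single-set cell. The 2 gene expression libraries shared 31 barcodes, 11 of them in the large set and 3 in the single set.

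In D and J segments large and single chains had close values, and both lay apart from turnover, which was not so for length. The junction had a median of 14 bases in large chains, 14 in chains of 2 to 9 barcodes, 13 in single chains and 12 in single chains of turnover, and the whole CDR3 a median of 45 bases in large chains, 42 in single chains and 42 in single chains of turnover. A J segment of the TRBJ1 cluster was used by 14.5% of the 69 large chains (interval 7.17 to 25.04%), 8.64% of chains of 2 to 9 barcodes, 16.2% of single chains (13.1 to 19.6%) and 38.8% of turnover single chains. TRBD2 was called in 49.3% of large chains, 49.4% of chains of 2 to 9 barcodes, 49.0% of single chains and 31.4% of turnover single chains. V segments differed more. TRBV13-3 was used by 1 of 69 large chains (1.45%), against 41 of 243 chains of 2 to 9 barcodes (16.9%), 76 of 520 single chains (14.6%) and 4.53% of turnover single chains. It was the most frequent V segment among single chains. Other V segments ran the other way: TRBV2 was used by 10.1% of large and 2.50% of single chains, TRBV1 by 10.1% and 2.88%, and TRBV13-1 by 13.0% and 5.77%. The large chains behind these shares were 7, 7 and 9. Those of TRBV13-1 include calls with an early CDR3 start and both calls of 1 rearrangement, described below. These 4 V segments were picked out after their values were seen. Among resting cells TRBV13-3 was carried by 12 of 1492 large-set cells (0.804%) and 47 of 250 single-set cells (18.8%), and among S1pr1-positive single-set cells by 3 of 76 (3.95%).

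An unusual CDR3 call touched the large set. In 5 of 69 large chains (7.25%, interval 2.39 to 16.1%) the called CDR3 began with TGTACTTC, 8 bases ahead of the usual start, against 7 of 520 single chains (1.35%, 0.543 to 2.75%), and 24 of 3908 turnover single chains (0.614%). All used TRBV13-1 or TRBV13-2. For 1 rearrangement of TRBV13-1 to TRBJ1-5 both calls were large chains, so it is counted under both among the 69. The shorter sequence, of 48 bases, lies whole inside the longer, of 57. The longer starts 8 bases ahead and ends 1 base later, and 8 bases are not whole codons. The calls thus read the same join in different frames. Both were labelled productive. The large chain TRBV31 to TRBJ1-5 ends in the same bases as the longer call, 1 base beyond the end of the shorter. From the usual start to that end the join is not whole codons. The called CDR3s of all 5 early-start large chains were whole codons long, so counted from the usual start they were not. Whether such chains encode a working protein was not tested. Here the capitals mark the bases ahead of the usual start.
Early start, 47 barcodes: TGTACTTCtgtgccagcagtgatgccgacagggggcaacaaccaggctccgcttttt
Usual start, 42 barcodes: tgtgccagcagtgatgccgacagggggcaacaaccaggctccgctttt
A barcode with both calls occurred 1 time. The early start was carried by 172 matched large-set cells, for 146 of which it was the sole chain, and by 6 matched single-set cells.

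Large-set cells were mostly resting DP cells. Resting cells, defined by no Mki67 or Top2a UMI (both mark dividing cells), at least 1 Rag1 UMI and no S1pr1 UMI, made up 1492 of 1924 large-set cells (77.5%, interval 75.6 to 79.4%) and 250 of 469 single-set cells (53.3%). Chains of 2 to 9 barcodes lay between, at 590 of 814 (72.5%), and single chains of turnover had 65.1%. The difference between large and single was 24.2 percentage points (interval 19.4 to 29.1). When S1pr1-positive cells were left out of both sets it was 14.0 points, with 77.6% in the large set and 63.6% in the single set.

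S1pr1-positive cells were nearly all in the single set. A UMI of S1pr1 was found in 1 of 1924 large-set cells (0.0520%, interval 0.00132 to 0.289%), 5 of 814 cells with chains of 2 to 9 barcodes (0.614%) and 76 of 469 single-set cells (16.2%). In turnover it was found in 3 of 3562 cells with single chains (0.0842%). Median depths were 2414.5 UMIs in the large set and 2094 UMIs in turnover single chains. The 76 positive single-set cells held 201 S1pr1 UMIs and were deep, with a median of 11428.5 UMIs. They held 923582 of the 2785997 UMIs of the single set. Thinned to 1000 UMIs per cell, 0 of 1924 large-set cells, which allows up to 0.192%, and 14 of 469 single-set cells (2.99%) kept a UMI.

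Most S1pr1-positive single-set cells had Cd8 transcripts without Cd4, the coreceptor pattern that ISP cells, a sorted stage, share with mature CD8 cells. Of the 76, 68 had Cd8a or Cd8b1 but no Cd4 UMI, 5 had both, 2 had Cd4 alone and 1 had neither, and 4 had a Rag1 UMI. At least 2 UMIs of Nkg7, a granule protein of cytotoxic and NK cells, were present in 65. A productive TRA contig was found in 67 of 76 (88.2%). None of their chains, by the rule, occurred in another barcode.

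Cycling cells were a smaller share of the large set. Cells with 3 or more UMIs of Mki67 and Top2a together made up 83 of 1924 large-set cells (4.31%, interval 3.45 to 5.32%) and 39 of 469 single-set cells (8.32%), of which 10 were S1pr1-positive. The share was 2.70% for chains of 2 to 9 barcodes and 14.0% for single chains of turnover. Thinned to 1000 UMIs, the shares were 0.832% in the large set and 1.49% in the single set, and the interval of the difference, -2.25 to 0.264 percentage points, included 0. Cells with no UMI of Rag1, S1pr1, Mki67 or Top2a made up 308 large-set cells (16.0%) and 109 single-set cells (23.2%).

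**Figure D2:**
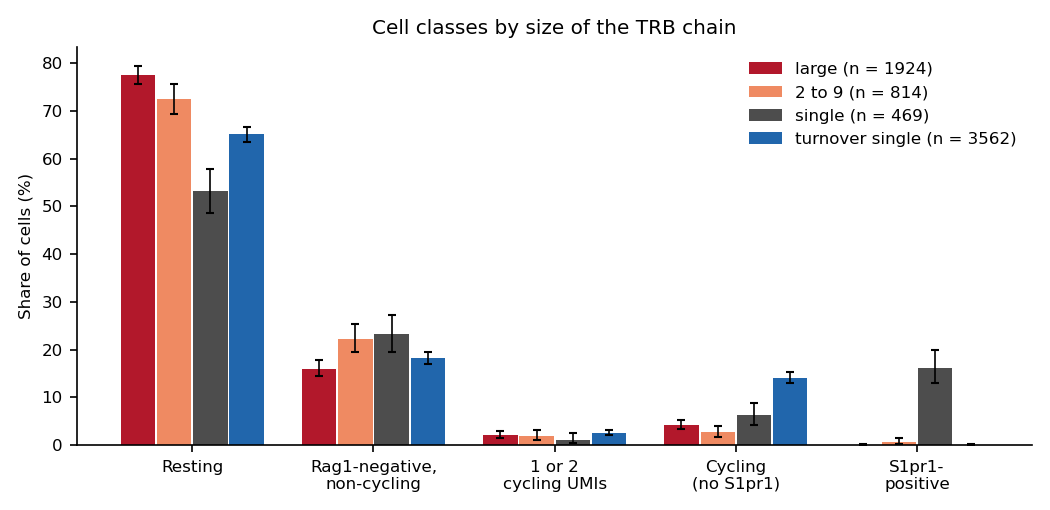
Share of cells (vertical axis, percent) in 5 classes that do not overlap, for cells of large chains, chains of 2 to 9 barcodes, single chains and single chains of turnover; bars are shares and whiskers exact 95% binomial intervals. Resting cells made up 77.5% of the large set and 53.3% of the single set, and S1pr1-positive cells 0.0520% and 16.2%.

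Over all matched cells, UMIs were summed per set and expressed as CPM, the counts scaled to a common library total. Of 7888 genes with 100 or more UMIs over both sets, 298 were at least 2-fold higher in the large set (3.78%) and 156 at least 2-fold lower (1.98%), 5.76% together. The median log2 ratio of large over single was 0.27. TMM scaling, which lowers the weight of genes that dominate a set, changed every log2 ratio by -0.23 and gave 108 higher and 249 lower. Ratios below are given without it.

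Genes of mature thymocytes were the lowest of the large set. Of 21 measured members of the mature single positive list, 16 were lower and none higher, with a median log2 ratio of -3.10, also 16 after TMM scaling. S1pr1 had 1 UMI in the large set and 201 in the single set, so its ratio was 0.00208 (interval 5.24e-05 to 0.0117). Nkg7 stood at 3.15 CPM in the large set and 334 CPM in the single set. Klf2, a transcription factor that switches on S1pr1, had 23.3 CPM in the large set and 272 CPM in the single set. Ccr7, the receptor that draws mature cells to the medulla, had 13.7 CPM against 142 CPM, and Il7r, the IL-7 receptor, 8.56 CPM against 73.6 CPM. The MHC class I heavy chain H2-K1 had 90.1 CPM in the large set and 887 CPM in the single set, a ratio of 0.102 (0.0927 to 0.111).

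None of the 69 large chains reached the single-set level of S1pr1, Nkg7, Klf2, Il7r or H2-K1, and 1 reached that of Ccr7. Of the single-set UMIs of Nkg7, Klf2 and Il7r, 76.5%, 73.9% and 73.7% lay in S1pr1-positive cells. The 10 lowest genes by rank added Klrd1 (an NK receptor, ratio 0.00373), Ly6c2 (0.00767), Itgae (the integrin that binds E-cadherin, 0.0125), Cd7 (0.0133), Cxcr6, Gm2682, Rflnb and the MHC gene H2-Q7. Markers of innate lymphoid, NKT and gamma-delta cells moved with them: 5 of 10 measured members were lower, among them Il2rb at 0.0370 and Trdc, the delta chain constant gene, at 0.303, and 2, Fcer1g among them, were higher. The summed level of that list was 680 CPM in the large set and 1065 CPM in the single set. Its NKT-defining member Zbtb16 had 0 UMIs in the large set and 5 in the single set. Their part in the result was not tested.

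Interferon response genes were also lower in large than in single chains, 10 of 27 measured members lower and none higher, 14 lower after TMM scaling. The single set had the highest summed level of that list, 5880 CPM. The large set had 3767 CPM, chains of 2 to 9 barcodes 4080 CPM and turnover single chains 3268 CPM. Ifi27l2a had 161 CPM in the large set and 1220 CPM in the single set, Irf7, a transcription factor of the response, 52.7 CPM against 171 CPM, and Ifit3 1.80 CPM against 58.1 CPM. Without the S1pr1-positive cells 4 of 24 members were lower, the median was -0.27, and Irf7 was at a ratio of 0.557. In that comparison 45 genes were at least 2-fold higher and 61 lower (0.586% and 0.795% of 7675, 1.38% together). The mature list still had 10 of 18 members lower, H2-K1 at 0.235 and Klf2 at 0.218 among them.

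Genes of resting DP cells were among those on the higher side. Of 23 measured members of the small resting DP list 12 were higher and none lower, with a median log2 ratio of 1.0004; after TMM scaling 5 were higher, and without the S1pr1-positive cells 0. Rag1 had 884 CPM in the large set and 359 CPM in the single set, a ratio of 2.46 (2.30 to 2.63), and Rag2 417 CPM against 188 CPM. Cd4 had 650 CPM against 272 CPM and Ets2, a transcription factor, 610 CPM against 261 CPM. Dntt, the polymerase that adds untemplated bases at joins, had 1191 CPM in the large set and 533 CPM in the single set. Ptcra was at 338 CPM against 116 CPM, a ratio of 2.90 (2.58 to 3.27). The 5 large chains with the early CDR3 start had 650, 945, 785, 937 and 709 CPM of Ptcra, against a median of 268 CPM over large chains. The part of these chains in the Ptcra ratios, here and in the classes below, was not tested. The survival gene Bcl2l1, which DP cells use, was higher at 179 CPM against 82.6 CPM, while Bcl2, which mature cells use, was lower at 40.4 CPM against 118 CPM.

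Most large chains showed the DP pattern when taken alone. Rag1 exceeded the single-set level in 67 of 69 chains, with a lowest, median and highest chain at 261, 1120 and 1969 CPM. Cd4 exceeded it in 66 chains and Bcl2l1 in 68. The single-set levels include the deep S1pr1-positive cells, with 923582 of 2785997 UMIs. These had 9.74 CPM of Rag1 and 19.5 CPM of Cd4, which lowers the levels that chains had to exceed. The resting share ran from 50% over a median of 80.8% to 100% and exceeded the single-set share in 67 of 69 chains. Without S1pr1-positive cells the single-set share was 63.6%, and chains were not counted against that share. Chains had 6 to 191 matched cells, with a median of 19.

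**Figure D3:**
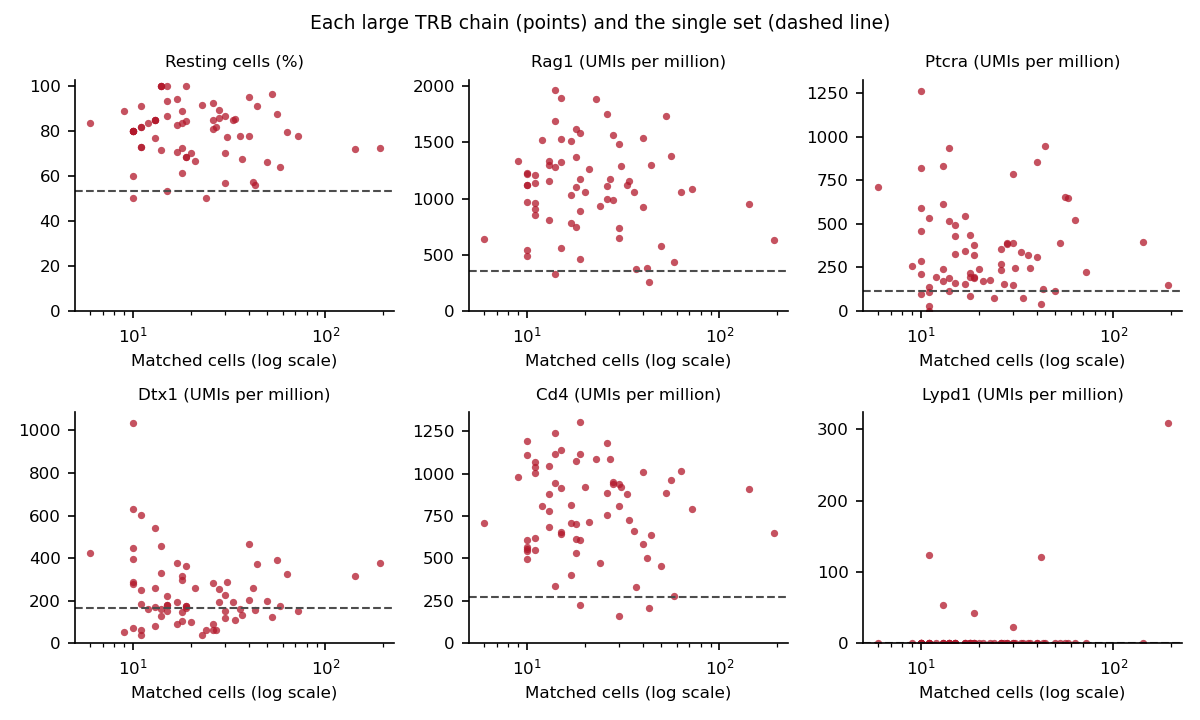
Resting share (percent) and CPM of Rag1, Ptcra, Dtx1, Cd4 and Lypd1 in each of the 69 large TRB chains (points) against its matched cells (horizontal axis, log scale). The dashed line is the level of the single set, S1pr1-positive cells included. Rag1 lies above the line in 67 chains, Ptcra in 59 and Dtx1 in 43, and Lypd1 has UMIs in 6 chains, with 309 CPM in the largest. The 6 include its partner chain, TRBV29 to TRBJ2-5.

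Some genes were high through a few chains. Lypd1, a GPI-anchored protein, had 218 UMIs in the large set and 1 in the single set, a ratio of 91.2 (16.2 to 3617). But 191 of the 218 came from the largest chain, TRBV13-2 to TRBJ2-4, and without it the ratio was 12.4. The 11 cells counted for its partner chain, TRBV29 to TRBJ2-5, stayed in, at 124 CPM of Lypd1 from 4 UMIs. Lyz2, the macrophage lysozyme, had 217 UMIs against 19, of which 90 came from 1 chain, and was at 4.78, or 3.08 without it. Pcsk1, a proprotein convertase, had 190 against 10 UMIs, a ratio of 7.95 (4.23 to 16.8). Without the chain that gave it most UMIs, the largest chain at 126 CPM, the ratio was 5.16. The TRBV2 to TRBJ2-1 chain of 43 barcodes, at 262 CPM of Pcsk1, stayed in. H2-T3, the nonclassical MHC gene that encodes the TL antigen, had 126 against 8 UMIs, a ratio of 6.59 (3.24 to 15.6), in 25 chains above the single-set level. Slit3, BC028471, Myzap, 9330020H09Rik and H2-Eb1 were also among the 10 highest, at ratios from 3.67 to 4.77. With large chains weighted equally and the single set summed, BB031773 was also among the 8 highest, at 4.10.

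Macrophage transcripts were part of this side. Of the macrophage and granulocyte list 4 of 7 measured members were higher (Lyz2, C1qb, Apoe and Fcer1g) and 1, Ctss, lower; after TMM scaling 2 were higher, and without the S1pr1-positive cells 1. Its summed level was 221 CPM in the large set, 90.6 CPM in chains of 2 to 9 barcodes, 156 CPM in the single set and 22.8 CPM in turnover single chains. Of its 14 members 1 had no UMI in the large set and 2 had none in the single set. When barcodes with 2 or more UMIs of the list were left out, 132 of 7638 genes were higher and 93 lower. The S1pr1-positive share of the single set was then 10.4%. The part of these transcripts in the other results was not tested beyond this.

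Cycling genes were level in the sums and uneven across large chains. None of 44 measured members was past 2-fold, the median being -0.15. With each large chain weighted equally 22 of 44 were lower and the median was -1.01. The single set stayed a sum of UMIs there, in which 29 cycling cells held 675560 of 2785997 UMIs. The sides were thus weighted in unlike ways, and the part of this in the lower median was not tested. Of the 83 cycling cells, 50 fell in 5 chains, and 48 of 69 chains had none. Ribosomal protein genes had a median of -0.70 with 2 of 20 lower, Rps18 and Rpsa, 7 after TMM scaling. Of the glycolysis and growth list 0 of 22 members, and of the selection list 1 of 18, Runx3 at 0.322, were past 2-fold.

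Notch genes were less clear cut. Notch signalling works at the DN stages, and Dtx1 and Ptcra are targets. In all cells 1 of 7 measured members was higher, Ptcra, with a median of 0.67; after TMM scaling 1 was higher and 1 lower, and without the S1pr1-positive cells 0 were higher. Dtx1 had 234 CPM in the large set, 195 CPM in chains of 2 to 9 barcodes, 164 CPM in the single set and 2.90 CPM in turnover single chains. The large chains ranged from 38.6 over 193 to 1035 CPM of Dtx1, and 43 of 69 lay above the single set. Myc was at a ratio of 0.536 (0.468 to 0.615), short of the call before TMM scaling. Of the early DN and pre-TCR list 3 of 5 measured members were higher, Ptcra and Dntt among them; after TMM scaling 1 was higher, and without the S1pr1-positive cells 0. Of its 20 members 10 had no UMI in the large set and 10 had none in the single set.

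Among resting cells alone, large and single chains were close. Of 6120 genes with 100 or more UMIs, 18 were at least 2-fold higher in the 1492 large-set cells (0.294%) and 4 at least 2-fold lower (0.0654%) than in the 250 single-set cells, 0.359% together. Without the largest chain 13 of 5888 genes were past 2-fold, and without barcodes carrying macrophage transcripts 14 of 5947. The median log2 ratio was -0.01 and the middle 80% of genes lay between -0.32 and 0.33. Of the 454 genes past 2-fold in all cells, 278 could be measured here and 5 were past it in the same direction. These were 4 of 233 measured out of 298 higher genes, and 1 of 45 measured out of 156 lower genes. Most of the lower genes thus had too few UMIs at rest to be compared. Median depth was 2343.5 UMIs in large-set and 2282 in single-set resting cells.

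The stage genes had like levels in resting cells. Rag1, 1 UMI of which the class required, had 1472 CPM in the large set and 1474 CPM in the single set, and Cd8a 3496 CPM against 3475 CPM. Cd4 was at a ratio of 1.03 (0.946 to 1.13). None of 23 small resting DP genes, 9 recombination genes, 19 interferon genes or 20 ribosomal protein genes was past 2-fold. H2-D1 was at 0.995 (0.880 to 1.13). H2-K1 stayed at 69.5 CPM in the large set and 123 CPM in the single set, a ratio of 0.563 (0.436 to 0.734) short of the call, and Ifi27l2a at 0.643 (0.524 to 0.793).

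The Notch and pre-TCR genes that set autonomy apart from turnover were present in both kinds of chain. Dtx1 had 306 CPM in large, 268 CPM in 2 to 9, 328 CPM in single and 1.41 CPM in turnover single chains. Its ratio of large over single was 0.934 (0.805 to 1.09). Ptcra had 412, 385, 332 and 88.3 CPM in the same order, and its ratio was 1.24 (1.07 to 1.44). Notch1 had 181, 179, 187 and 34.99 CPM. Il2ra, the IL-2 receptor alpha chain of DN cells, had 122, 106, 146 and 26.9 CPM. Foxo1, a transcription factor that also acts on Rag and Klf2, had 87.9, 89.7, 83.9 and 12.5 CPM. Socs3, an inhibitor of cytokine signalling, had 254, 218, 242 and 15.7 CPM. In each of these genes the 3 autonomy levels lay near each other and the turnover level well below, with library and condition not to be told apart. Hoxa7 had no UMI in any of the 3 autonomy sets and 5.63 CPM in turnover single chains, and Tpi1, a glycolytic enzyme, had 14.7, 11.3, 14.2 and 71.4 CPM.

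**Figure D4:**
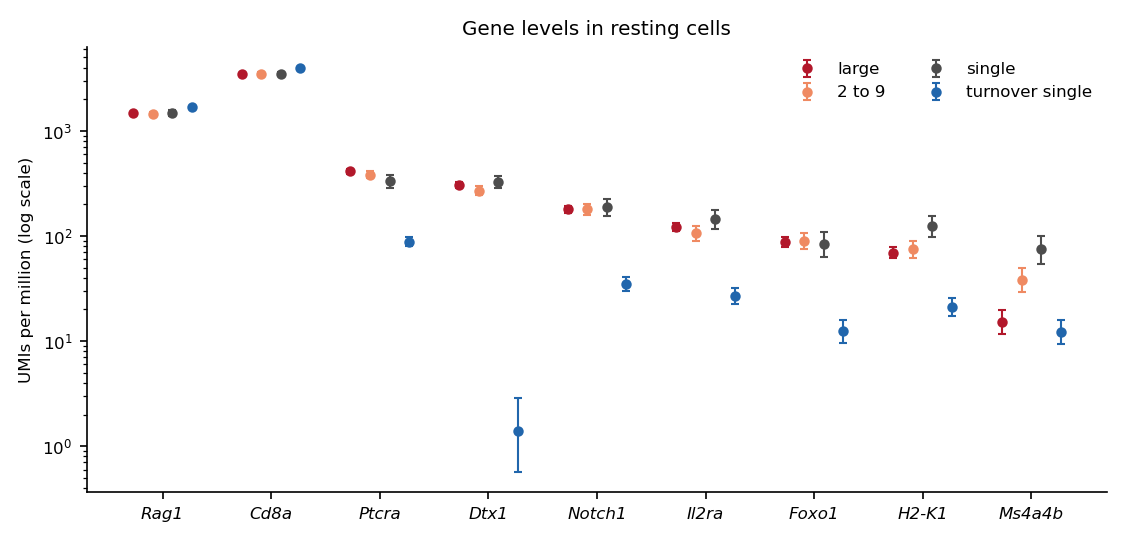
CPM (vertical axis, log scale) of 9 genes in resting cells of large chains, chains of 2 to 9 barcodes, single chains and single chains of turnover; points are summed levels and whiskers exact 95% Poisson intervals, which cover counting error only. Dtx1, Ptcra, Notch1, Il2ra and Foxo1 are close in the 3 autonomy sets and lower in turnover, and Ms4a4b is at 15.3, 38.5, 74.4 and 12.3 CPM in that order of sets.

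A few genes kept a difference at rest. Ms4a4b, a membrane protein of mature T cells, had 15.3 CPM in large, 38.5 CPM in 2 to 9, 74.4 CPM in single and 12.3 CPM in turnover single chains, a ratio of large over single of 0.205 (0.137 to 0.308). These levels came from 58 UMIs in 52 of 1492 large-set cells and 47 UMIs in 14 of 250 single-set cells. Cpsf4l, a gene related to a polyadenylation factor, had 22.1 CPM in the large set and 76.0 CPM in the single set, a ratio of 0.291 (0.202 to 0.424), and 0.402 CPM in turnover. Gnl3 (nucleostemin, a nucleolar protein) was at 0.460 and Kbtbd11 at 0.475. Next in rank, and short of the call, were Gm45606, Nipsnap2 and Ly6k at 0.511 to 0.528. Ccr7 at 32 against 15 UMIs, Myc at 31 against 20 and Il7r at 1 against 1 were under 100 UMIs.

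On the higher side at rest stood Lypd1 with 143 UMIs in the large set and 1 in the single set, a ratio of 23.8 (4.20 to 946). It was 2.95 without the largest chain, with the cells counted for its partner chain kept. Pcsk1 was at 2.94 and Lyz2 at 2.87, or 2.05 and 1.88 without the chain that gave each most UMIs. The macrophage list stood at 326 CPM in the large set and 242 CPM in the single set. Sfi1, Uba6, Incenp and Cfap36 were at 2.34 to 2.74 with 6 to 13 UMIs in the single set. Egr1, an early response gene of TCR signalling, had 140 UMIs against 9, a ratio of 2.59 (1.32 to 5.78), but 72.4 CPM in chains of 2 to 9 barcodes, above both. H2-T3 had 48 UMIs against 0, at least 2.66-fold higher with a floor of 3 UMIs over the single set (exact lower limit 2.08), and lay under the 100 UMIs required.

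**Figure D5:**
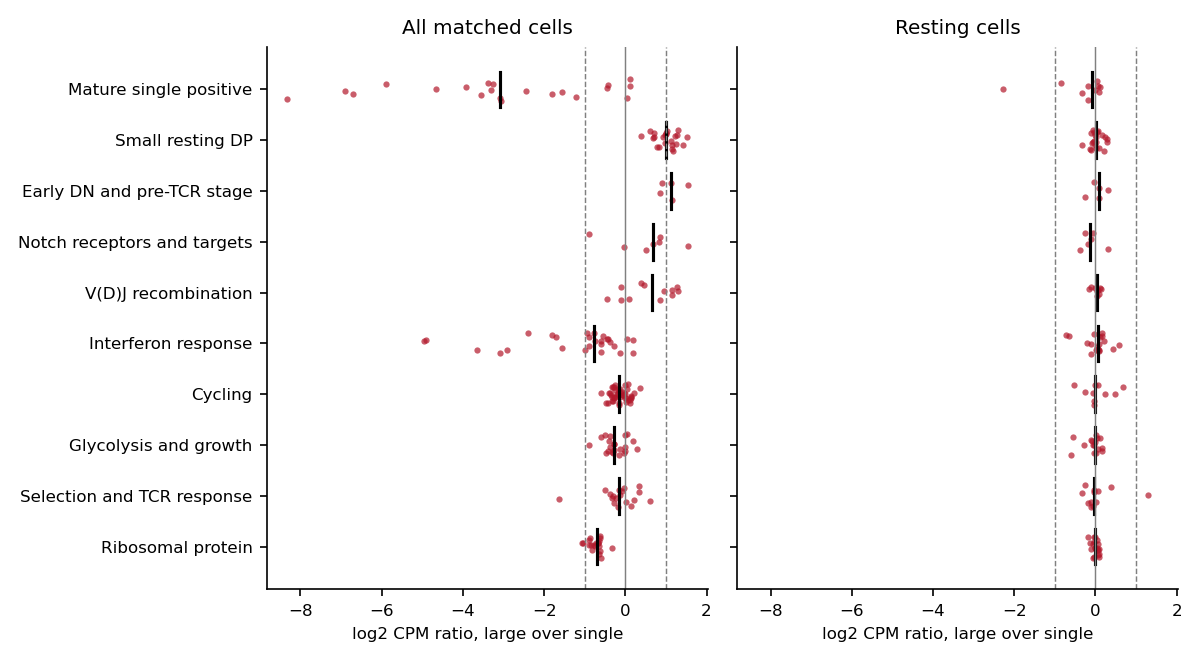
log2 ratio of CPM, large over single set (horizontal axis), for the measured genes of 10 lists (rows) in all matched cells (left) and in resting cells (right); each point is a gene, the black bar is the list's median and the dashed lines mark 2-fold. The mature list has its median at -3.10 over 21 genes in all cells and -0.09 over 10 genes in resting cells. The small resting DP list has its median at 1.0004 and 0.01.

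Outside the resting class, with fewer cells, a larger share of genes was past 2-fold. In cells with no UMI of Rag1, S1pr1, Mki67 or Top2a (308 large-set and 109 single-set cells), 60 genes were at least 2-fold higher and 28 lower (2.14% and 1% of 2799, 3.14% together). Median depths were 2774 in the large set and 3671 in the single set. The mature list had 10 of 17 members lower: Klf2 had 29.3 CPM in the large set and 238 CPM in the single set, and H2-K1 175 CPM against 904 CPM. The small resting DP list had 10 of 19 members higher, Cd4 at 455 CPM against 189 CPM and Ets2 at 386 CPM against 158 CPM among them. Of the selection genes 0 of 17 were past 2-fold: Itm2a had a ratio of 1.12 (1.01 to 1.26), Egr1 0.996 (0.843 to 1.18) and Cd69 1.19 (0.977 to 1.47). Nkg7 was at 14 UMIs in 2 of 308 large-set cells and 147 UMIs in 22 of 109 single-set cells.

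Among cycling cells without S1pr1 (82 large-set and 29 single-set cells) 20 genes were at least 2-fold higher and 14 lower (0.594% and 0.416% of 3366, 1.01% together), and 0 of 44 cycling genes was past 2-fold. Ptcra had 307 CPM in the large set and 120 CPM in the single set, a ratio of 2.56 (2.02 to 3.28). Without the chain that gave it most UMIs the ratio was 1.99. Cd81, a tetraspanin, was at 3.15 (2.05 to 5.04) and Ly6d, a surface protein, at 2.10. Cd163l1, a scavenger receptor, was at 4.32 (2.18 to 9.73), but in cells with no UMI of Rag1, S1pr1, Mki67 or Top2a it had 0 UMIs in the large set and 26 in the single set. Trdc was lower, 45.8 CPM against 182 CPM (0.251, 0.186 to 0.338), and so was Ms4a4b at 0.209. Trbc1 and Ifi27 passed 2-fold at 2.45 and 2.46, and stood at 1.09 and 1.35 without 1 chain each.

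The alpha chains showed how the cells of a large beta chain differed. A productive TRA contig was found in 841 large-set cells (43.7%) and 271 single-set cells (57.8%). Among resting cells the shares were 41.1% in the large set (interval 38.6 to 43.6%), 40.5% in 2 to 9, 42.8% in the single set and 43.5% in turnover single chains. The 841 large-set cells held 919 distinct TRA chains. Of these, 1 occurred in 2 or more cells, namely in 4. In 0 of 69 large chains was the number of distinct TRA chains below the number of cells with TRA. Some cells held more than 1 TRA chain, so this count can miss a shared chain. The largest chain, for example, had 80 TRA chains over 74 cells. The TRAJ segment numbers, which fall as the alpha locus rearranges repeatedly since high numbers lie nearest the V segments, had a median of 17.5 in large-set resting cells, 16 in 2 to 9, 17 in single-set and 26 in turnover single chains.

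Both Xist, which female cells express, and Y-linked transcripts were present in the autonomy library. Xist without a Y-linked UMI was found in 627 large-set cells (32.6%) and 246 single-set cells (52.5%), a Y-linked gene without Xist in 525 (27.3%) and 75 (16.0%), and no turnover single-chain cell had Xist alone. Cells with chains of 2 to 9 barcodes had 51.7% and 12.8%, close to the single set. Of the 525 Y-linked cells of the large set, 71, 58, 42 and 40 lay in 4 chains. Of 64 large chains with at least 5 cells of either signal, 33 had Xist cells alone, 11 had Y-linked cells alone, and 4 and 10 more had at least 90% of the one or the other. The remaining 6 were mixed, including the largest chain, with 13 Xist and 71 Y-linked cells, and the TRBV12-2 to TRBJ2-7 chain of 51 barcodes, with 10 and 19. Among TRBV13-3 cells, 12 of the large set had Xist and 0 a Y-linked gene, where TRBV13-3 was used by 1 large chain. In chains of 2 to 9 barcodes these were 99 and 3, and in the single set 49 and 2. The sex signal differed between the large set and the other autonomy sets, and in TRBV13-3 cells. Its part in the gene differences was not tested, and cells of a chain are not independent.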

How the data were processed

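The gene expression tables were deposited as counts of unique molecules per gene and barcode, and the V(D)J tables as contigs with counts of UMIs and reads. Cell Ranger 3.0.2, Seurat 3.1.3.9002 and mm10 are named per the submitters' processing notes, while for gene models, cell calling and receptor segments the reference is not given in the sources used here. Deposited tables held 16388810 UMIs over 4587 autonomy barcodes and 20163286 over 4374 turnover barcodes.

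UMIs were summed per set and divided by the set's total. Ratios of CPM have conditional exact binomial intervals, shares exact (Clopper-Pearson) and differences of shares Newcombe intervals, all at 95%. A gene was called at 2-fold with 0.5 UMI added and 100 or more UMIs over both sets. TCR V, D and J segment genes were left out because the chain chose the cells. A gene without a UMI was set to a floor of 3. Cells counted for 1 chain, their largest, in values per chain. Doublets were not called or removed, so cells with 2 or more chains were kept. Named were the 10 highest and 10 lowest genes in all cells, 8 and 8 in resting cells, 8 and 8 by the mean of chains with 5 or more cells, and members of the lists with 20 or more UMIs; some of these genes are not reported here. The sets and gene lists were chosen with earlier results of these data known. Simulated counts were independent Poisson draws per set, without variation between cells or chains. Among changed genes that kept 100 or more UMIs, at least 98% of 4-fold and 3-fold changes were recovered. In resting cells 50 genes were kept for each rise, but 21 for the 4-fold fall and 28 for the 3-fold fall. Intervals covered 95.5% and 95.6% of true values in the all-cell and resting comparisons, for counting error alone. Alternatives changed the chain, cell and gene thresholds, thinned cells to 1000 UMIs, left out chains or weighted them equally, and applied TMM scaling. TMM factors came from edgeR 4.0.16 in R 4.3.3, and intervals from scipy 1.17.1 in Python 3.11.15.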

Additional observations from a re-analysis of the deposited data

How the results depend on the processing

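The share differences, large minus single, kept their direction under every alternative run. The 10 chains with the most matched cells counted for them were left out in turn. The TRBV29 to TRBJ2-5 chain of 186 barcodes, with 11 such cells, was not among them. The differences were 23.7 to 24.8 percentage points for resting cells, -4.78 to -3.71 for cycling cells and -16.2 to -16.1 for S1pr1-positive cells. Of 7732 to 7868 measured genes, 419 to 529 were past 2-fold in all cells. In resting cells these were 13 to 20 of 5888 to 6057. The 13 were without the largest chain. Thinned to 1000 UMIs the differences were 17.1, -0.661 and -2.99 points. Past 2-fold were then 44 of 4419 measured genes in all cells and 12 of 2893 in resting cells. Why these counts were lower was not tested. Without barcodes carrying macrophage transcripts the S1pr1 difference was -10.3 points, with 225 of 7638 genes in all cells and 14 of 5947 in resting cells. Without S1pr1-positive cells, an alternative chosen after seeing the data, the resting difference was 14.0 points and 106 of 7675 genes were past 2-fold. Equal weights for the large chains, with the single set still summed, gave 906 of 7888 genes in all cells. In resting cells, chains of 20 or more barcodes gave 11 of 5515 genes. Cells with exactly 1 TRB chain gave 13 of 5724, and dropping the Rag1 requirement 88 of 6850. A gene minimum of 20 UMIs gave 959 of 10149 genes in all cells and 361 of 9074 in resting cells. A minimum of 500 UMIs gave 129 of 3458 and 0 of 1819. A 1.5-fold call gave 1906 of 7888 and 253 of 6120. TMM scaling gave 357 of 7888 (108 higher) and 23 of 6120. Of 2313 values of named genes under alternatives, 2066 lay in the counting interval of the reported value and 4 reversed on the log2 scale: Apoe to -0.10 when thinned and -1.02 without macrophage transcripts, Oas1a to 0.40 when thinned and Egr1 in resting cells to -0.77 without the Rag1 requirement. The cause was not tested. No paired analysis was possible because each condition has 1 library per assay.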
